A study of Mus musculus with 9 samples.

Results

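The comparison set NIH-CAR cells with full-length PPARγ2 and its agonist against cells with an empty virus and vehicle, over all genes that the arrays could name. NIH-CAR is 1 clonal line of NIH-3T3 mouse fibroblasts that stably expresses a form of the coxsackie-adenovirus receptor (CARΔ1), through which adenovirus enters. All cells were at passage 12 and took up adenovirus for 2 h. The 3 arrays of the first group came from cells given virus for HA-tagged full-length PPARg2 (AdHA-PPARg2) and then rosiglitazone, also called BRL49653, at 1 µM. The 3 arrays of the second came from cells given AdEmpty and then the solvent DMSO. The 6 arrays were chosen by their titles, out of 9 in the series; the other 3 held cells with a receptor lacking its A/B-domain (HA-PPARgCDE) and rosiglitazone. No group had receptor without agonist or agonist without receptor, so the effects of the 2 cannot be told apart. The time from agonist to harvest was not given in the sources used here.

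PPARγ is a nuclear receptor that works as a pair with a retinoid X receptor (RXR) on a direct repeat of hexamers, the DR1 element. Its PPARγ2 form directs preadipocytes to become adipocytes, and thiazolidinediones such as rosiglitazone bind its ligand pocket and recruit coactivators. Known targets in fat carry fatty acids in, store them in droplets and oxidise them, and the activated receptor is also known to lower inflammatory transcripts without binding a DR1 element itself.

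Levels are log2 values of 18193 genes, each read from its brightest probe set over the 9 arrays. A difference is full-length minus empty vector on that scale, with its standard error (SE), so 1 unit is a 2-fold change. Values are given in the order of arrays 1, 2 and 3, for the receptor and then for empty vector. In brackets after the values of a called gene stand the difference, its SE and the adjusted p. A gene was called higher or lower at a limma adjusted p under 0.05, and only called genes are said to rise or fall. Per the series' design text the RNA came from 3 separate experiments, each with these treatments, so the p-values reflect the spread between experiments on 1 clonal line. The titles number the arrays 1 to 3 without saying that a number marks an experiment, and the main comparison does not pair them. The deposited values carry no detection calls. In 11 of the rises the empty-vector mean lay under every array's median, as did the receptor mean in 3 of the falls, and there the difference may be only a lower bound.

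The arrays numbered 3 stood apart before any comparison was made. A principal component analysis of the 6 arrays put 40.9% of the variance in a component that set full-length array 3 at 45.6, against -20.8 to 10.1 for the other 5. The next, with 24.6%, set empty-vector array 3 at 38.5, against -13.2 to 0.70. Control probes for 18S ribosomal RNA had means of 7.59 and 8.67 on these 2 arrays and 10.51 to 12.44 on the other 4. On deleted-receptor arrays 1, 2 and 3 these means were 11.55, 12.35 and 8.06. Signals from the 3' and 5' ends of Gapdh differed by at most 0.092 on any of the 6 arrays. The main counts are also given without the arrays numbered 3.

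Against empty vector, 91 genes rose (0.5% of those tested) and 28 fell (0.154%), or 119 in all (0.654%). The largest rises included genes of fatty acid handling, and the largest falls genes of growth factor signalling and inflammation. Of the rises 57 were by at least 1 log2 unit and 14 by at least 2. Of the falls 19 were by at least 1 and 2 by at least 2. In every called gene the 3 arrays of a group lay above all 3 of the other. Such separation was seen in 4.52% of all genes upward and 4.86% downward, 9.38% in all. Genes that rose started from a median empty-vector level of 8.57 and genes that fell from 9.76, against 7.45 for all genes. A further 46 genes differed by at least 1 upward and 41 by at least 1 downward without being called, and the groups did not overlap in 41 and 22 of them. The median difference over all genes was 0.0032.

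**Figure D1:**
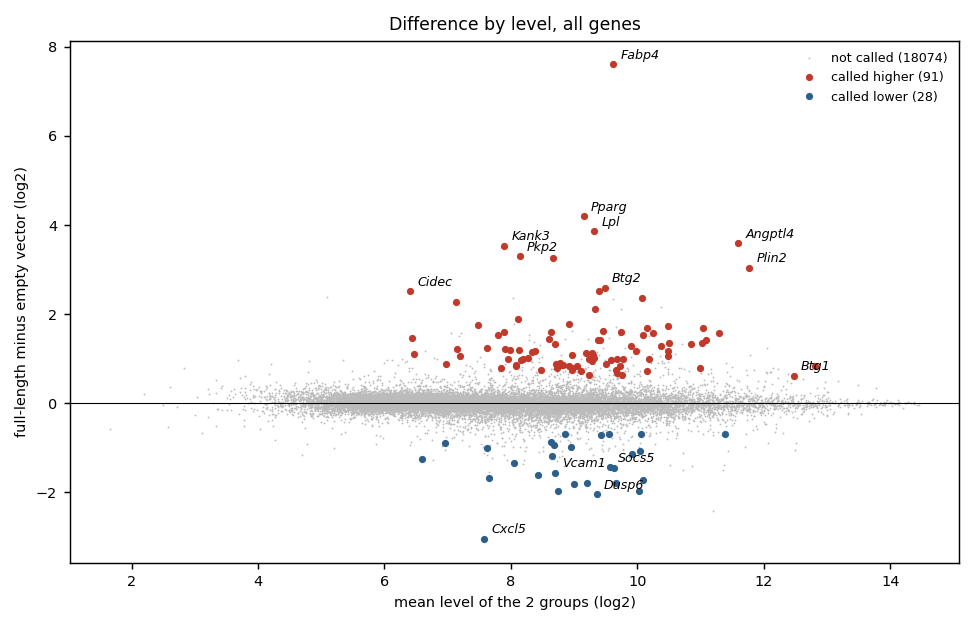
Difference between the groups (log2, full-length minus empty vector) against the mean level of the 2 groups (log2) for 18193 genes; red points were called higher, blue points lower, grey points neither. The 91 rises reach 7.60 (Fabp4), the 28 falls reach -3.05 (Cxcl5), and the cloud of other genes is centred on 0.

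The counts moved with the arrays in the fit. Leaving out full-length array 1 or 2, or empty-vector array 1 or 2, gave 53, 44, 49 and 48 higher genes. Leaving out full-length array 1 or 2, or empty-vector array 2, gave 18, 13 and 14 lower genes. With only the 6 arrays compared, 53 genes were higher and 14 lower. Without the arrays numbered 3 the counts were 121 and 35, and 86 of the 119 calls were kept. With the replicate number as a block across the 9 arrays, 344 genes were higher and 317 lower, all 119 calls among them. Deviations from the group means correlated at above 0.1 in 8 of the 9 pairs of arrays with equal number, the exception being full-length array 1 with empty-vector array 1 (-0.12). A call held against single arrays, in what follows, if it was made in all 9 fits that left out 1 array; this was so for 47 genes. Of those, 41 were called in every fit tried, 34 higher and 7 lower. Averaging all probe sets of a gene ended 34 calls, among them those of Pex13 (adjusted p = 0.175), Get1 (0.122) and Bbx (0.333), which held against single arrays, and of Cebpd (0.108), Tob1 (0.0736) and Myo1e (0.151).

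The promoters of the called genes were read for the receptor's element, since its known targets include several of the genes that rose. RefSeq promoters of GRCm38.p6, 250 bases before to 50 after the start, were matched for 81 of the 91 higher and 20 of the 28 lower genes. A full DR1 (a pair of AGGNCA hexamers with any 1 base between them, on either strand) was in 0 of the 81 and 0 of the 20, and in 0.451% of 27025 genes with a promoter. The single hexamer AGGTCA, searched after that count was seen, was in 13 of the 81 (16%), 4 of the 20 (20%) and 18.1% of all. The CArG box, the element of serum response factor, was in 0 of the 81, 1 of the 20 and 1.81% of all. A match describes letters in a short window, and the lack of one says nothing of sites elsewhere.

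Printed next are the 250 bases before the start of 3 genes that rose and hold the hexamer, chosen after their values were seen for their roles in lipid storage (Plin2), growth arrest (Btg2) and fatty acid oxidation (Cpt1a), and of the gene that fell and holds the CArG box (Myo1e, an unconventional myosin). Each is on the gene's own strand in GRCm38.p6, with the match in capitals. The capitals of the first 3 read TGACCT because the hexamer lies on the opposite strand.
Plin2, chr4:86670060-86670309, minus strand: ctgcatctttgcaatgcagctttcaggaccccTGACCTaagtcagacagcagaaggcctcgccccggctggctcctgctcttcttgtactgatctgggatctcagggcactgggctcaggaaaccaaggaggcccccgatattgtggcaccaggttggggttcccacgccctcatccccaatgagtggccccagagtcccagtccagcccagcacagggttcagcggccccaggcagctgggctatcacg
Btg2, chr1:134079156-134079405, minus strand: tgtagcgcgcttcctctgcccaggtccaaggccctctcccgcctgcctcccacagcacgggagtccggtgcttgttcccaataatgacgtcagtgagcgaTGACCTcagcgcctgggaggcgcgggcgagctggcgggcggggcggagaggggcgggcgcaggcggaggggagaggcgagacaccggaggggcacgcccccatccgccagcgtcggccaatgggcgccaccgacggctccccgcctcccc
Cpt1a, chr19:3323051-3323300, plus strand: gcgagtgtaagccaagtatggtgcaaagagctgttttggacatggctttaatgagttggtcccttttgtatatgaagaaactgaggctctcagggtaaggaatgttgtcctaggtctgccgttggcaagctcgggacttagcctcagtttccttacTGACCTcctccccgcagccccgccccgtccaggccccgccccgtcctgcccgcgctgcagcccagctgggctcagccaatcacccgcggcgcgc
Myo1e, chr9:70207100-70207349, plus strand: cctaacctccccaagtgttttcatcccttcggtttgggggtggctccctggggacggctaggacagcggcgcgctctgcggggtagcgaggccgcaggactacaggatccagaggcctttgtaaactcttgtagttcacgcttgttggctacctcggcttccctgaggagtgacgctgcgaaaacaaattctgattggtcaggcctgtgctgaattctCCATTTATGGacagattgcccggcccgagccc
The first base of the match lies 218 bases before the start of Plin2, 150 before that of Btg2, 94 before that of Cpt1a and 32 before that of Myo1e.

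Pparg, the introduced receptor, rose 18.3-fold. The 3 full-length arrays read 10.70, 12.22 and 10.84, against 7.01, 6.99 and 7.17 for empty vector. Full-length array 2 was the highest by more than 1 unit, so receptor transcript was not at 1 level across the 3 arrays. The difference was 4.20 (SE 0.41, adjusted p = 0.00191), and 1 probe set carries it, which does not separate the transgene from the cell's own transcript. Of 23 measured receptors and coregulators of the PPAR and RXR families (26 listed) Pparg was the 1 called (4.35%, against 0.654% of all genes). The partners Rxra, Rxrb and Rxrg differed by 0.12, 0.04 and 0.10, and the related receptors Ppara and Ppard by 0.02 and 0.22, with overlapping groups in all 5. Cited2, a coactivator of PPARs, read 11.22, 10.71 and 10.09 against 12.23, 12.15 and 11.80, with no overlap, and was not called (-1.39, adjusted p = 0.0969). It was called with all its probe sets averaged (-1.37, adjusted p = 0.0269) and with the replicate block (0.00456). Cxadr, the mouse gene of the virus receptor, differed by 0.03 at levels of 6.20 to 6.54, under every array's median.

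Fatty acid uptake and binding held the comparison's largest change. Of 20 measured genes (22 listed) 3 rose (15%) and 0 fell, against 0.5% and 0.154% of all genes. The median over the list was 0.15. Fabp4, which carries fatty acids inside adipocytes, read 13.50, 13.63 and 13.13 against 6.03, 6.02 and 5.39 (7.60, SE 0.47, adjusted p = 0.000237). Its empty-vector arrays lay under every array's median, so the difference may be a lower bound, and its 4 probe sets rose by 4.29 to 7.72 with all 4 called. Lpl, the lipase that releases fatty acids from lipoproteins, read 11.40, 11.30 and 11.04 against 7.71, 7.15 and 7.32 (3.86, SE 0.23, adjusted p = 0.000235), 14.5-fold up. Angptl4, a secreted inhibitor of that lipase, read 13.29, 13.20 and 13.68 against 9.90, 8.84 and 10.67 (3.59, SE 0.38, adjusted p = 0.00325). Empty-vector array 2 was low and array 3 high for Angptl4, a spread of nearly 2 units that still left the groups far apart. The calls of all 3 held against single arrays. The scavenger receptor gene Cd36, a fatty acid transporter of adipocytes, read 6.04, 5.72 and 5.65 against 5.66, 6.25 and 5.82, with overlap. Olr1, the oxidised LDL receptor, differed by 2.39 with no overlap and was not called (adjusted p = 0.117). The list also held 1 uncalled gene with separated lower arrays, Acsl4 (-0.61), an acyl-CoA synthetase.

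Lipid droplet genes rose in part. Of 20 measured genes (22 listed) 3 rose (15%) and 0 fell, against 0.5% and 0.154% of all genes. The median was 0.13 and ran from 0.01 without empty-vector array 3 to 0.20 without empty-vector array 2. Plin2, the coat protein of droplets in most cells, read 12.96, 13.04 and 13.87 against 10.23, 9.75 and 10.75 (3.04, SE 0.35, adjusted p = 0.00444), 8.25-fold up. Array 3 was the highest of its group in both. Cidec, which enlarges droplets by fusion and is largely an adipocyte gene, read 7.92, 8.20 and 6.86 against 5.34, 5.19 and 4.93 (2.51, SE 0.32, adjusted p = 0.00915). Full-length array 3 was the lowest of the 3, the reverse of Plin2. Fitm2, a protein of the endoplasmic reticulum needed for droplets to form, read 9.76, 10.06 and 9.59 against 7.86, 8.11 and 8.12 (1.77, SE 0.17, adjusted p = 0.00179). These 3 calls held against single arrays. Pnpla2, the lipase that starts triglyceride breakdown, read 7.74, 7.72 and 7.85 against 6.68, 6.90 and 7.24. It was separated but just missed the threshold (0.83, adjusted p = 0.0518) and was called without empty-vector array 3 (0.98, adjusted p = 0.0226), without the arrays numbered 3 (0.94, adjusted p = 0.0258) and with a trended and robust variance (0.0432). The hormone-sensitive lipase gene Lipe differed by 0.25 with overlap.

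Mitochondrial fatty acid oxidation had the highest median of the 17 lists, 0.40 over 31 measured genes (35 listed). That median ran from 0.32 to 0.50 when single arrays were left out. Of the 31 genes 4 rose (12.9%) and 0 fell, against 0.5% and 0.154% of all genes, and 22 differences were above 0. The groups were separated upward in 12 genes and downward in 1, against 4.52% and 4.86% of all genes. Cpt1a, the outer-membrane transferase that admits long-chain fatty acids, read 11.33, 11.40 and 11.33 against 9.75, 9.25 and 9.86 (1.73, SE 0.15, adjusted p = 0.00119). Its full-length arrays were nearly identical, and 2 of its 3 probe sets were called. Acot2, a mitochondrial acyl-CoA thioesterase, read 9.57, 9.45 and 9.28 against 7.996, 7.64 and 7.89 (1.59, SE 0.14, adjusted p = 0.000911). Its other probe set differed by 0.37. The near-identical paralog Acot1 may share the signal of Acot2, so the gene behind that signal is uncertain. Etfdh, which passes electrons from acyl-CoA dehydrogenases to ubiquinone, read 10.03, 10.25 and 10.23 against 9.12, 9.27 and 9.13 (1.00, SE 0.12, adjusted p = 0.00474). The other probe set of Etfdh differed by 0.29. Cpt2, the inner-membrane partner of Cpt1a, read 9.66, 9.93 and 9.60 against 8.62, 8.85 and 8.77 (0.98, SE 0.16, adjusted p = 0.0278). The calls of Cpt1a, Acot2 and Etfdh held, while that of Cpt2 was lost without full-length array 1 or 2, any empty-vector array or deleted-receptor array 1 (adjusted p up to 0.146). Separated but not called were Acadvl (1.03), Slc25a20 (1.04), Acaa2 (0.98), Hadh (0.75), Hadhb (0.72) and Hadha (0.71), enzymes and the carnitine carrier of the same pathway. Pdk4, which turns glucose carbon away from mitochondria, read 11.21, 10.82 and 10.38 against 9.59, 8.52 and 7.93. Its 2.12 was the largest of the list and was not called (adjusted p = 0.0518), with arrays widely spread in each group. It was called without empty-vector array 1 (2.58, adjusted p = 0.0147), with median subtraction (0.0406), with genes above the median level alone (0.0344) and with the replicate block (0.00357). Acadm, the medium-chain dehydrogenase, differed by 0.59 with overlap.

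Genes of peroxisome assembly were among the rises. Of 29 measured genes (32 listed) 3 rose (10.3%) and 0 fell, against 0.5% and 0.154% of all genes, with a median of 0.13. In 10 genes the groups were separated upward and in 2 downward, against 4.52% and 4.86% of all genes. Pex13 and Pex14 form the docking complex through which enzymes enter the peroxisome. Pex13 read 10.72, 10.54 and 10.44 against 9.48, 9.29 and 9.42 (1.17, SE 0.13, adjusted p = 0.00356), and Pex14 read 9.18, 9.39 and 9.41 against 8.34, 8.47 and 8.68 (0.83, SE 0.12, adjusted p = 0.0171). Ech1, an isomerase of unsaturated fatty acid oxidation in peroxisomes and mitochondria, read 10.51, 10.81 and 10.31 against 9.39, 9.45 and 8.94 (1.28, SE 0.21, adjusted p = 0.0268). Outside the list, and chosen after their values were seen, the peroxisomal membrane gene Pex16 (0.74), the fatty acyl-CoA reductase Far1 of ether lipid synthesis (0.80) and the peroxisomal dehydrogenase gene Hsdl2 (1.01) also rose. Pex11a, which divides peroxisomes, read 9.30, 9.67 and 8.40 against 7.74, 8.07 and 7.62 and was not called (1.31, adjusted p = 0.348). It was called without the arrays numbered 3 (1.58, adjusted p = 0.0205) and with the replicate block (adjusted p = 0.0227). The calls of Pex13 and Hsdl2 held against single arrays. That of Pex14 was lost without full-length array 2 or 3 or empty-vector array 1 or 2 (up to 0.11), and those of Ech1, Pex16 and Far1 without full-length array 1 or 2 or any empty-vector array, among others (up to 0.138, 0.125 and 0.215). As a whole the list had 1 to 3 higher genes with 1 array left out, 1 with only the 6 arrays compared, and 5 without the arrays numbered 3, when its median was 0.05.

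Fatty acid and triglyceride synthesis had 2 higher (6.25%) and 0 lower of 32 measured genes (33 listed), against 0.5% and 0.154% of all genes. The list's median was 0.12. Pcx, the carboxylase that makes oxaloacetate from pyruvate, read 9.22, 9.50 and 8.44 against 7.22, 7.12 and 7.16 (1.89, SE 0.30, adjusted p = 0.0265). The control arrays were nearly identical, and full-length array 3 was about 1 unit under array 2. Its call was lost without full-length array 1 or 2, any empty-vector array or deleted-receptor array 1 (adjusted p up to 0.137). Fads3, a member of the desaturase family, read 11.19, 11.36 and 10.95 against 9.85, 9.74 and 9.90 (1.34, SE 0.17, adjusted p = 0.00822), with 3 of 3 probe sets called and a call that held. Beyond the list, Lpcat3, which puts polyunsaturated fatty acids into membrane phospholipids, read 11.57, 11.51 and 11.48 against 10.38, 10.20 and 9.97 (1.34, SE 0.12, adjusted p = 0.00152), and its call held too. Pck1, which makes phosphoenolpyruvate for glycerol in fat cells, differed by -0.07 with overlap.

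**Figure D2:**
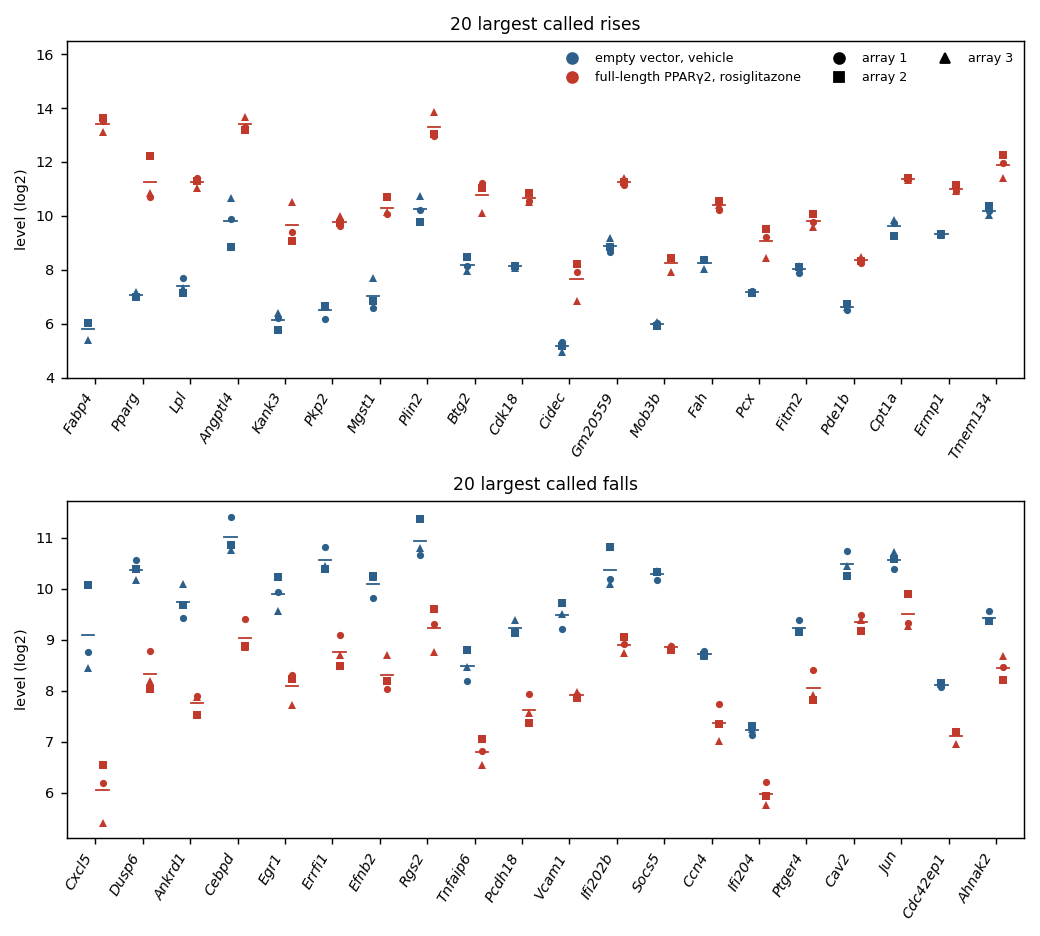
Level on each of the 6 arrays (log2) for the 20 largest called rises (upper panel) and falls (lower panel); blue is empty vector with vehicle, red is full-length PPARγ2 with rosiglitazone, marker shape is the array number and the short line is the group mean. The red and blue points of each gene do not overlap, and Fabp4 goes from about 6 to above 13.

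Few genes of adipocyte secretion, insulin response and thermogenesis were called, though a larger share than of all genes. In this list 1 of 26 measured genes (28 listed) rose (3.85%) and 2 fell (7.69%), against 0.5% and 0.154% of all genes. The list's median was 0.04. Fabp4, Lpl, Plin2 and Cidec, which rose, are not in this list. Irs2, an adaptor of the insulin receptor, read 8.72, 8.90 and 8.08 against 7.17, 7.02 and 6.90 (1.54, SE 0.26, adjusted p = 0.0333). Cebpd, an early factor of adipocyte differentiation, read 9.40, 8.88 and 8.85 against 11.42, 10.87 and 10.76 (-1.97, SE 0.26, adjusted p = 0.00935), a fall to a level 3.92-fold lower. Cav2, a caveolin, read 9.49, 9.17 and 9.38 against 10.75, 10.26 and 10.44 (-1.13, SE 0.16, adjusted p = 0.0129). In both genes array 1 was the highest of each group. The related factors Cebpa and Cebpb differed by -0.03 and -0.10, the insulin-responsive glucose transporter Slc2a4 by -0.05 and the thermogenic Ucp1 by 0.13, all with overlap. Adiponectin (Adipoq) read 5.66, 5.54 and 5.84 against 5.64, 5.52 and 5.22, under every array's median. The call of Irs2 was lost without full-length array 1 or 2, any empty-vector array or deleted-receptor array 1 (adjusted p up to 0.159), that of Cebpd without full-length array 2 (0.055) and that of Cav2 without full-length array 2 (0.0745) and without the arrays numbered 3 (0.0663).

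Fibroblast markers were high in both groups. All 10 fibroblast markers were measured at a median empty-vector level of 13.48, with the lowest at 10.50, and 0 were called. Fn1 differed by -0.08 at the probe set used and by -1.60 at its other, with neither called. Their summed log2 level ran from 122.7 to 128.5 with empty vector and from 120.8 to 127.9 with the receptor. Of 8 mature adipocyte markers 6 were measured, at empty-vector levels of 5.15 to 7.13, and 1 rose, Cidec (16.7%, against 0.5% of all genes). Their summed log2 level ran from 35.7 to 37.7 with empty vector and from 39.3 to 40.0 with the receptor, and none stood at 0. Without Cidec the other 5 overlapped, at 30.8 to 32.3 with empty vector and 31.5 to 32.5 with the receptor. No muscle, leukocyte, epithelial, endothelial or bone marker was called, of 6, 6, 5, 4 and 3 measured, and 0 of these and of the fibroblast markers had an unadjusted p under 0.05, against 6.19% of all genes. In a bulk sample, more transcript per cell and more cells that express a gene cannot be told apart.

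Detoxification and oxidative stress genes had 3 higher (7.89%) and 0 lower of 38 measured (40 listed), against 0.5% and 0.154% of all genes. The list's median was 0.11. Mgst1, a membrane-bound glutathione transferase, read 10.06, 10.71 and 10.14 against 6.58, 6.83 and 7.70 (3.27, SE 0.31, adjusted p = 0.00179). Empty-vector array 3 was the highest control, and of the gene's 2 probe sets the other differed by 0.22. Ephx2, the soluble epoxide hydrolase, read 8.22, 8.25 and 8.25 against 7.003, 6.84 and 7.18 (1.23, SE 0.12, adjusted p = 0.00211). Aldh9a1, an aldehyde dehydrogenase that serves carnitine synthesis, read 10.995, 11.11 and 11.10 against 9.85, 9.75 and 10.11 (1.16, SE 0.13, adjusted p = 0.0043), with both probe sets called. In the last 2 genes the full-length arrays were nearly identical, and all 3 calls held against single arrays. Fah, the last enzyme of tyrosine breakdown and no list member, read 10.23, 10.55 and 10.39 against 8.39, 8.38 and 8.05 (2.12, SE 0.17, adjusted p = 0.000618), and its call held.

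Other large rises fell outside lipid metabolism. Kank3, an adaptor of the cytoskeleton, read 9.42, 9.06 and 10.51 against 6.23, 5.76 and 6.39 (3.54, SE 0.38, adjusted p = 0.00356), with array 3 highest in each group. Pkp2, a plaque protein of desmosomes, read 9.63, 9.74 and 9.98 against 6.19, 6.65 and 6.63 (3.29, SE 0.16, adjusted p = 6.65e-05). Of the 3 probe sets of Kank3 and the 4 of Pkp2, 2 each were called, and the smallest difference was 0.44 and 0.02. Cdk18, a kinase of the PCTAIRE group, read 10.54, 10.87 and 10.53 against 8.17, 8.16 and 8.08 (2.51, SE 0.18, adjusted p = 0.000433). Mob3b, of the MOB family of kinase partners, read 8.44, 8.42 and 7.92 against 6.02, 5.91 and 6.07 (2.26, SE 0.17, adjusted p = 0.000442), and its other probe set differed by 0.22. The predicted gene Gm20559 read 11.14, 11.25 and 11.39 against 8.66, 8.84 and 9.19 (2.36, SE 0.16, adjusted p = 0.000249). Its other probe set differed by 0.51. All 5 calls held in every fit tried.

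A further group of rises concerned regulators of transcription, cyclic nucleotides and transport. Tle3, a Groucho-type corepressor known to act with PPARγ in adipogenesis, read 10.17, 10.55 and 10.07 against 8.63, 8.58 and 8.71 (1.62, SE 0.16, adjusted p = 0.00234). Spin4, a spindlin-family gene, read 8.75, 8.56 and 8.77 against 7.17, 6.96 and 7.17 (1.59, SE 0.13, adjusted p = 0.000663). Neither gene had an array within 1 unit of the other group. Pde1b, a calmodulin-dependent phosphodiesterase, read 8.25, 8.33 and 8.47 against 6.50, 6.71 and 6.60 (1.75, SE 0.11, adjusted p = 0.000237). The adenylyl cyclase Adcy6 (1.09), the natriuretic peptide receptor Npr2 (0.86) and the protein kinase A inhibitor Pkig (0.63) also rose; these 4 genes of cyclic nucleotide signalling were grouped after their values were seen. The call of Pde1b held, but that of Adcy6 was lost without full-length array 2 (adjusted p = 0.0577), that of Npr2 without full-length array 2 or empty-vector array 1 or 2 (up to 0.0938), and that of Pkig without any 1 array but full-length array 3 (up to 0.159). Ermp1, a peptidase of the endoplasmic reticulum, read 10.94, 11.15 and 10.91 against 9.32, 9.31 and 9.30 (1.69, SE 0.12, adjusted p = 0.000272), with control arrays nearly identical. Slc18b1, a vesicular polyamine transporter, read 10.66, 10.71 and 10.26 against 8.97, 8.95 and 8.94 (1.59, SE 0.17, adjusted p = 0.00356). Both of these calls held. Tmem134, a membrane protein gene, read 11.98, 12.26 and 11.39 against 10.18, 10.38 and 10.02 (1.69, SE 0.29, adjusted p = 0.0338), and its call was lost without full-length array 1 or 2, any empty-vector array or deleted-receptor array 1 (up to 0.159).

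In the cell cycle list only antiproliferative genes were called. Of 37 measured genes (38 listed) 3 rose (8.11%) and 0 fell, against 0.5% and 0.154% of all genes, with a median of -0.08. The 3 were Btg2, Tob1 and Btg1, which slow entry into the cycle. Btg2 read 11.22, 11.04 and 10.09 against 8.15, 8.47 and 7.94 (2.60, SE 0.37, adjusted p = 0.0136). Tob1 read 10.05, 10.40 and 9.93 against 8.90, 8.41 and 8.79 (1.43, SE 0.21, adjusted p = 0.0174). Btg1 read 12.82, 12.84 and 12.68 against 12.12, 12.21 and 12.16 (0.61, SE 0.10, adjusted p = 0.0285), the smallest of the 91 rises at 0.61. Array 3 with the receptor was the lowest of its group in all 3 genes. None of these calls held: Btg2 was lost without full-length array 1 or 2 or any empty-vector array (adjusted p up to 0.0794), Tob1 without full-length array 1 or 2 or empty-vector array 2 or 3 (up to 0.0946), and Btg1 without any 1 array but full-length array 3 and deleted-receptor array 3 (up to 0.171). With 1 array left out the list had 0 to 3 higher genes. The stress kinase gene Plk3, outside the list, rose by 1.21, a call lost without empty-vector array 1 or 2 (0.0501 and 0.054). The largest uncalled difference downward was that of Cdkn1b (-0.54), an inhibitor of cyclin-dependent kinases.

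Trim25 and Casp8, genes of virus sensing and of cell death, rose. Trim25, a ubiquitin ligase of RNA virus sensing, read 11.07, 11.10 and 10.96 against 9.47, 9.62 and 9.28 (1.59, SE 0.12, adjusted p = 0.000442), with 3 of 3 probe sets called. It was the 1 called gene of 25 measured in the interferon list (28 listed), or 4% higher against 0.5% of all genes. The list's median was -0.02 and its lowest member, Ifit2, differed by -0.33. Casp8, the initiator caspase of death receptors, read 10.75, 10.87 and 10.95 against 9.20, 9.28 and 9.47 (1.54, SE 0.13, adjusted p = 0.000709). Both calls held.

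Several smaller rises served mitochondria, membranes and the extracellular matrix, and these groups too were formed after the values were seen. Slc25a30, a mitochondrial carrier, rose by 1.57, though its 5 probe sets ran from -0.18 to 1.66. Hccs, which attaches haem to cytochrome c, rose by 1.29 and Ppcs, an enzyme of coenzyme A synthesis, by 1.06. The calls of these 3 held. Polg (0.75), the polymerase of mitochondrial DNA, and Cluh (0.89), which binds transcripts of mitochondrial proteins, did not hold (adjusted p = 0.142 and 0.205 without full-length array 2, and lost without other arrays too). Among genes of membrane traffic, the p24 protein gene Tmed5 (1.42), the lysosomal receptor Scarb2 (1.07), Tbc1d2 (0.99), the lipid flippase Atp11a (0.99) and the V-ATPase subunit Atp6v0a1 (0.83) rose. Of these, Tmed5 held, and the others were lost without full-length array 2 (0.0794, 0.0595, 0.055 and 0.185), Atp6v0a1 also without 6 other arrays. The 5 probe sets of Tmed5 ran from 0.01 to 1.42, with 3 called. Adamts4, a protease that cuts aggrecan, read 7.69, 7.74 and 7.84 against 6.53, 6.62 and 6.48 (1.21, SE 0.10, adjusted p = 0.000794) and held. Of its 2 probe sets the other differed by 0.55 and was not called.

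Among the falls, feedback and immediate-early genes of ERK signalling had the most calls of any list. Of 37 measured genes (38 listed) 5 fell (13.5%) and 0 rose, against 0.154% and 0.5% of all genes. In the list 29 differences were below 0, with a median of -0.14. Separated downward were 15 genes and upward 3, against 4.86% and 4.52% of all genes. Dusp6, a phosphatase that removes ERK's activating phosphates, read 8.78, 8.03 and 8.20 against 10.57, 10.40 and 10.17 (-2.04, SE 0.23, adjusted p = 0.0043). Egr1, an immediate-early transcription factor, read 8.31, 8.24 and 7.72 against 9.93, 10.23 and 9.56 (-1.82, SE 0.21, adjusted p = 0.00499). Errfi1, an inhibitor of the EGF receptor, read 9.09, 8.49 and 8.71 against 10.83, 10.40 and 10.45 (-1.80, SE 0.25, adjusted p = 0.0124). In these 3 genes every receptor array was at least 1 unit under every control. Rgs2, which shortens G-protein signals, read 9.31, 9.61 and 8.77 against 10.67, 11.37 and 10.80 (-1.72, SE 0.24, adjusted p = 0.0138), and its 4 probe sets ran from -1.72 to 0.10. Jun, a subunit of AP-1, read 9.34, 9.90 and 9.27 against 10.40, 10.59 and 10.72 (-1.07, SE 0.19, adjusted p = 0.0486). Its partner Fos was separated in the same direction at lower levels, 6.57, 6.68 and 6.21 against 7.08, 7.62 and 6.69, and was not called (-0.64, adjusted p = 0.49). Spry2 (-1.35), Phlda1 (-1.11) and Fosl2 (-0.98), chosen after their values were seen, were also separated and not called. The highest member was Klf10 (0.83), a repressor induced by TGF-beta, not called in the main comparison but called without empty-vector array 3 (1.15, adjusted p = 0.0226) and without the arrays numbered 3 (1.05, adjusted p = 0.017). The calls of Dusp6 and Egr1 held. That of Errfi1 was lost without full-length array 2 or empty-vector array 1 (0.0668 and 0.0615), that of Rgs2 without full-length array 1 or empty-vector array 2 (0.0536 and 0.0557) and that of Jun without any 1 array but full-length array 2 (up to 0.207). Without the arrays numbered 3 the list had 4 lower and 2 higher genes and a median of -0.27.

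Inflammatory transcripts fell in part. Of 37 measured NF-kB and inflammatory genes (39 listed) 3 fell (8.11%) and 0 rose, against 0.154% and 0.5% of all genes. Differences were above 0 in 17 and below 0 in 20. The median was -0.02 and ran from -0.11 to 0.03 without single arrays. Cxcl5, a chemokine that draws neutrophils, read 6.20, 6.55 and 5.41 against 8.76, 10.08 and 8.45 (-3.05, SE 0.42, adjusted p = 0.0124). This was the largest fall measured, and may be a lower bound since the receptor arrays lay under every array's median. Array 2 was highest and array 3 lowest in both groups. Tnfaip6, a hyaluronan-binding protein induced by TNF, read 6.81, 7.06 and 6.55 against 8.20, 8.81 and 8.46 (-1.68, SE 0.19, adjusted p = 0.0043). Vcam1, an adhesion molecule for leukocytes, read 7.92, 7.86 and 7.97 against 9.21, 9.72 and 9.52 (-1.57, SE 0.18, adjusted p = 0.00444). The calls of all 3 held against single arrays, although Cxcl5 was not called in a fit of only the 6 arrays compared (adjusted p = 0.0537). Ptgs2, the inducible cyclooxygenase, read 9.77, 9.73 and 10.99 against 11.32, 11.25 and 12.14. It was separated and not called (-1.41, adjusted p = 0.374), but it was called without the arrays numbered 3 (-1.53, adjusted p = 0.00433). The prostaglandin E2 receptor gene Ptger4, outside the list, fell by 1.18, a call lost without full-length array 2 or 3 or any empty-vector array (up to 0.123). Ccl2 read 8.69, 10.00 and 8.35 against 9.98, 10.84 and 9.40 and Il6 read 7.34, 5.91 and 5.80 against 6.93, 5.71 and 5.64, with overlap in both. With the replicate block Ccl2 was called lower (-1.06, adjusted p = 0.00654): it was lower with the receptor at each of the 3 numbers. The highest member was the chemokine Ccl9, 1.54 and separated, but not called (adjusted p = 0.221).

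A set of 3 related genes of the interferon-inducible p200 family fell, and this group was seen after the values. Ifi202b read 8.92, 9.05 and 8.75 against 10.19, 10.82 and 10.09 (-1.46, SE 0.20, adjusted p = 0.0116), and Ifi204 read 6.21, 5.94 and 5.76 against 7.14, 7.30 and 7.25 (-1.26, SE 0.17, adjusted p = 0.0096). Mndal fell by 0.89, with its other probe set at 0.35 in the opposite direction. The family's members are closely alike in sequence, so which of them the probe sets measured is uncertain. The call of Ifi202b was lost without full-length array 1 (adjusted p = 0.0522), that of Ifi204 without full-length array 2 or empty-vector array 2 (0.0575 and 0.0576), and that of Mndal without any 1 array but deleted-receptor array 3 (up to 0.154).

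Preadipocyte and adipogenesis regulators had 3 lower (7.69%) and 0 higher of 39 measured genes, against 0.154% and 0.5% of all genes. The list's median was -0.02. Socs5, a suppressor of cytokine signalling, read 8.88, 8.79 and 8.88 against 10.18, 10.33 and 10.36 (-1.44, SE 0.13, adjusted p = 0.00134). The receptor arrays were nearly identical, and both probe sets were called. Efnb2, a ligand of Eph receptors, read 8.04, 8.19 and 8.71 against 9.83, 10.25 and 10.23 (-1.79, SE 0.26, adjusted p = 0.0155). Its relative Efnb1 lay the other way, at 9.97, 9.87 and 8.90 against 8.23, 8.18 and 8.01, and was not called (1.44, adjusted p = 0.0909). It was called without full-length array 3 (1.78, adjusted p = 0.012) and without all arrays numbered 3 (1.71, adjusted p = 0.00328). With the replicate block it was called too (adjusted p = 0.01). Rarg, a retinoic acid receptor, read 9.11, 9.12 and 9.35 against 9.96, 9.73 and 9.98 (-0.70, SE 0.12, adjusted p = 0.0398). The call of Socs5 held, that of Efnb2 was lost without full-length array 1 or 2 or empty-vector array 2 or 3 (up to 0.0982), and that of Rarg without any 1 array but full-length array 3 (up to 0.204). Tle3, Irs2 and Medag (1.14), a gene that promotes adipogenesis, rose and are no members of this list; the call of Medag was lost without full-length array 1 or 2, any empty-vector array or deleted-receptor array 1 (up to 0.159).

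Targets of the serum response factor and of YAP, and contractile genes, had 1 lower (3.57%) and 0 higher of 28 measured genes (31 listed). Of all genes 0.154% were lower and 0.5% higher. The list's median was -0.18, with 24 of 28 differences below 0. It ran from -0.06 without empty-vector array 2 to -0.35 without empty-vector array 3. Ankrd1, a target of both factors, read 7.89, 7.52 and 7.88 against 9.43, 9.68 and 10.09 (-1.97, SE 0.25, adjusted p = 0.00813), and its call held in every fit tried. Ccn2, the connective tissue growth factor, read 10.25, 9.20 and 10.50 against 12.37, 11.99 and 12.84. Its -2.42 was larger than that of Ankrd1, but the spread within groups left it uncalled (adjusted p = 0.062); it was called without deleted-receptor array 2 or 3 (0.0298 and 0.0445) and with genes above the median level alone (0.0412). Ccn1, another such target, read 12.34, 12.21 and 12.46 against 11.84, 12.05 and 11.83 and was not called either (0.43, adjusted p = 0.295). Outside the list, Ccn4, a secreted protein of the same family, read 7.75, 7.35 and 7.02 against 8.78, 8.70 and 8.69 (-1.35, SE 0.17, adjusted p = 0.00813), and its call held. Pcdh18, a protocadherin, read 7.93, 7.38 and 7.57 against 9.17, 9.13 and 9.39 (-1.60, SE 0.22, adjusted p = 0.0105), with 3 of 3 probe sets called and the call lost without full-length array 2 (0.0583). Myo1e, whose promoter holds the CArG box shown above, read 8.35, 8.12 and 8.11 against 9.07, 9.24 and 8.91 (-0.88, SE 0.13, adjusted p = 0.0155). Its 4 probe sets ran from -0.88 to 0.01, and the call was lost without full-length array 2 or empty-vector array 1 or 2 (up to 0.0978).

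Matrix genes, protein folding stress genes and reference genes had 0 of 31, 0 of 28 and 0 of 12 measured members called by limma. Of all genes 0.654% were called, so in lists of this size 0 calls lies near that share. It does not show that these genes were unchanged. The list medians were -0.07, -0.08 and -0.04. At an unadjusted p under 0.05, which 6.19% of all genes reached, the counts were 2, 1 and 1. The matrix list ran from Adamts5 (-1.27), a protease, to the basement membrane collagen Col4a1 (1.08). Col4a1 read 12.61, 12.48 and 11.87 against 11.58, 11.30 and 10.84, and it was called without the arrays numbered 3 (1.11, adjusted p = 0.017). Among reference genes the extremes were Ywhaz (-0.12) and Hprt (0.38), and the groups of Hprt did not overlap.

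The lists were counted again without the arrays numbered 3, when 121 of all 18193 genes were higher and 35 lower. Uptake then had 3 higher, droplet 4, mitochondrial oxidation 5, peroxisomal 5, synthesis 2, detoxification 4, cell cycle 2 and interferon 1, with 0 lower in each. Inflammatory genes had 4 lower and 1 higher, contractile genes 1 lower and preadipocyte regulators 2 lower and 1 higher. The adipocyte list had 1 higher and 1 lower, and the matrix list 1 and 1. In a count of members, mitochondrial oxidation genes were 12.9% called higher and ERK genes 13.5% called lower, against 0.5% and 0.154% of all genes; the lists were chosen with such results known, so this is a description.

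**Figure D3:**
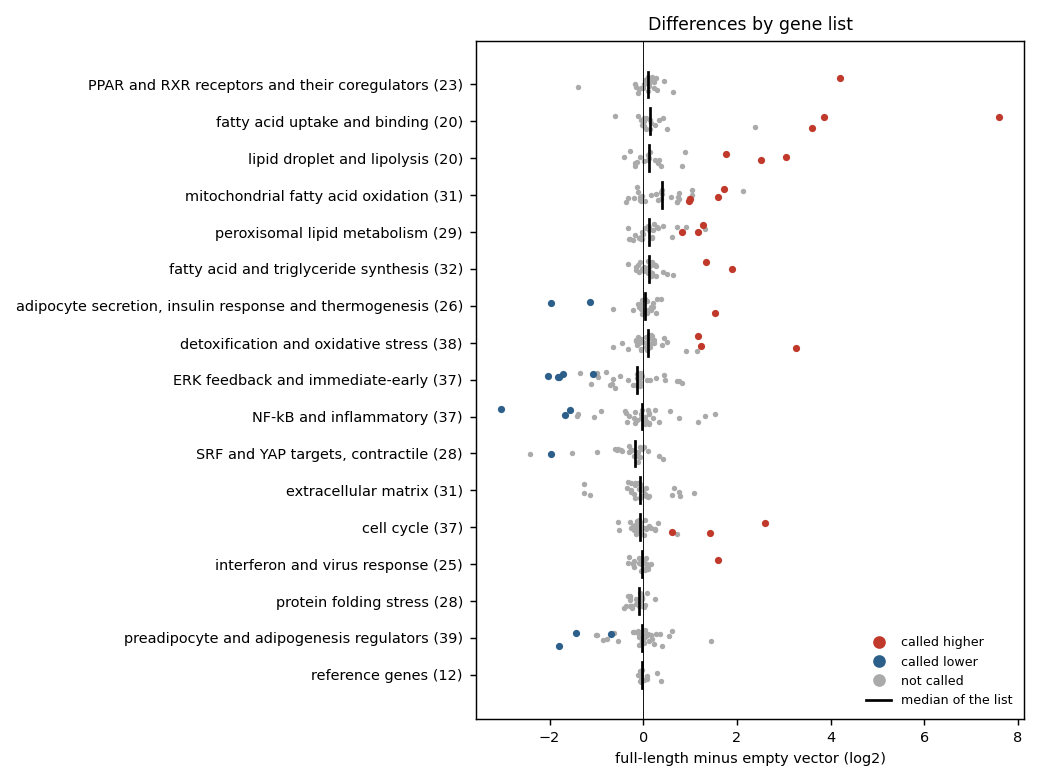
Difference (log2, full-length minus empty vector) of each measured member of the 17 gene lists, with the number measured in brackets; red and blue points were called higher and lower, grey points were not called, and the black bar is the median of the list. Mitochondrial fatty acid oxidation has the highest median (0.40), and called points lie to the right in the lipid lists and to the left in the ERK, inflammatory, contractile and preadipocyte lists.

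Against the receptor without its A/B-domain, which the series compared in cells given the same agonist, the 119 genes gave 0 calls in a direct limma comparison. This was 0 of all 18193 genes (0%), with 277 (1.52%) at an unadjusted p under 0.05, where the 95% interval of the difference excludes 0. The replicate number was not used as a block here. Deviations of full-length and deleted-receptor arrays of equal number correlated at 0.30, 0.51 and 0.53. An unpaired comparison can miss differences in such data, so 0 calls does not show that the receptors act alike. Of the 119, 44 rises and 15 falls had such an interval, larger in size with the full-length receptor. Both receptors were set against the same empty-vector arrays, and the full-length arrays chose the genes, so these counts and sizes are a description. The 6 widest gaps, full-length minus deleted, were in Cidec (1.96, 95% interval 1.23 to 2.69), Lpl (1.32, 0.80 to 1.83), Cxcl5 (-1.32, -2.27 to -0.38), Pcx (1.09, 0.41 to 1.78), Fabp4 (1.06, -0.01 to 2.13) and Adamts4 (0.96, 0.73 to 1.19). Adamts4 had the lowest adjusted p, 0.08. On the deleted-receptor arrays Cidec read 5.59, 6.11 and 5.40, and Adamts4 read 6.83, 6.73 and 6.84. In both genes these lay above every empty-vector array, by means of 0.55 and 0.25, and neither difference was called. At the other end, Mob3b differed by 0.00 (-0.38 to 0.38) between the receptors, Hccs by -0.01 (-0.34 to 0.32) and Ppcs by 0.03 (-0.21 to 0.26). These intervals still allow small gaps in either direction.

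**Figure D4:**
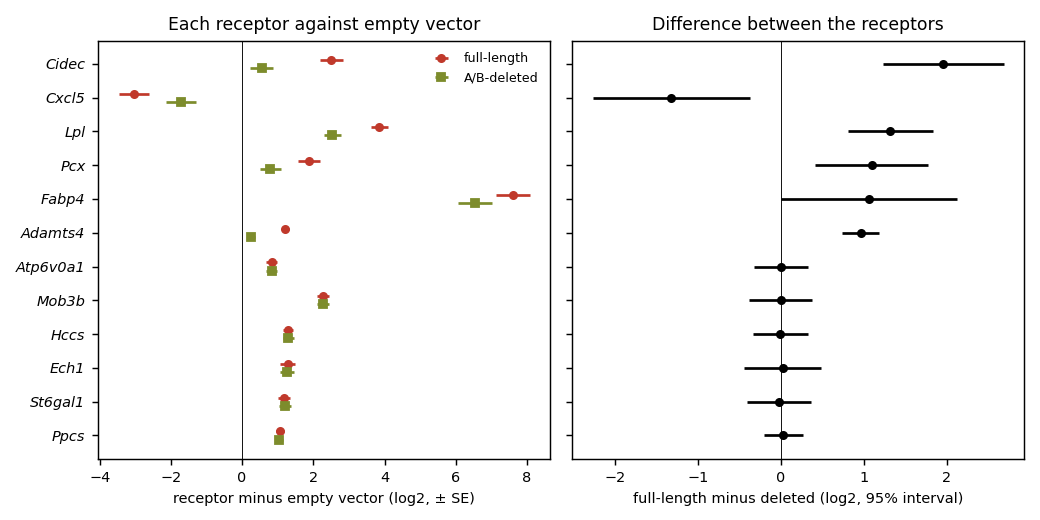
Left, difference of each receptor from empty vector (log2, bars are SE) for the 6 called genes with the widest and the 6 with the narrowest gap between the receptors; right, full-length minus deleted receptor (log2, bars are 95% intervals). Cidec and Adamts4 differ from empty vector by 0.55 and 0.25 with the deleted receptor and by 2.51 and 1.21 with the full-length one, while Mob3b, Hccs and Ppcs have nearly equal differences.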

How the data were processed

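RNA of 9 arrays was measured, 6 of them in the comparison. The deposited table holds log2 values of 45101 probe sets. Per the submitters' processing notes, the authors used RMA (affy, R 2.5.0). Base 2 was inferred from the values, since 2 raised to the value was a multiple of 0.01 for 99.858% or more of each array. Of the probe sets 34945 had 1 gene symbol in the platform annotation, and these were used. The 932 with several, the 9160 with none and the 64 controls were left out. The RefSeq table of GRCm38.p6 changed 0 symbols. Each of 18193 genes was represented by the probe set of highest mean; 9010 genes had several.

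Differences were tested with limma 3.58.1 in R 4.3.3 (lmFit, contrasts.fit, eBayes, two-sided tests). A single fit used 9 arrays with 3 group means and no block, and had 6 residual and 3.374 prior degrees of freedom and a median SE of 0.158. P-values were adjusted by Benjamini-Hochberg over all genes. The fit was tested on simulated data for this comparison over 18193 genes, 200 of them changed: 83 of 100 changed by 1 log2 unit and 99 of 100 changed by 2 were called, with 13 false calls among all 195 (6.67%). The simulated noise was normal and independent between arrays, with no pattern shared by arrays of equal number. These shares therefore need not hold for the real arrays. There, of differences of at least 1 log2 unit, 57 upward and 19 downward were called, and 46 and 41 were not. Tables and figures used Python 3.11.15, pandas 2.3.3, numpy 2.4.6 and matplotlib 3.10.9. Arrays have no read depth, and their number limits the precision. Array medians ran from 6.68 to 6.90.

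Values on all arrays are given for the 25 largest rises and 15 largest falls among called genes, for called list members, and for Pparg and Cxadr. Most uncalled genes are named as fixed members or extremes of a list. Olr1, Acadvl, Slc25a20, Acaa2, Hadh, Hadhb, Hadha, Spry2, Phlda1 and Fosl2 were instead picked after their values were seen, as list members with separated groups. The comparison, the genes and the 17 gene and 7 marker lists were chosen with earlier results of these data known, so no list was tested. Alternatives were the arrays in the fit, the replicate number as a block, the scaling, the probe set of a gene, a filter on low levels and the variance model. One group of called genes is not reported here.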

Additional observations from a re-analysis of the deposited data

Results flagged for a closer look

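Probe sets with no gene symbol or with several were in no comparison of the report, yet some responded. In a limma fit over all 45037 probe sets that are not controls, 10092 were of this kind, and 21 of them were higher and 5 lower with the full-length receptor and rosiglitazone than with empty vector, 0.258% of them, with differences up to 2.65 and -1.56 on the log2 scale. They were singled out because they carry signal in data that the comparisons did not use, and the genes behind them were not analysed here. With 3 arrays in each group, Dixon's test for an outlying value was not run on single genes.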

How the results depend on the processing

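Of the 91 higher and 28 lower genes, the direction of every one was kept in every fit tried. With only the 6 arrays compared, 53 were higher and 14 lower, and 52 of the 119 calls were lost. With genes above the median level alone, 53 were lower and 134 higher. Leaving out 1 array gave from 44 to 88 higher and from 13 to 26 lower genes, and 11 to 63 of the 119 calls were lost, fewest without deleted-receptor array 3 and most without full-length array 2. Median subtraction lost 30 calls, averaging each gene's probe sets 34, quantile normalization 2, a trended and robust variance 0, and leaving out the arrays numbered 3 lost 33; the counts under these were within 1.5 times of the main ones. The cause of these moves was not tested, apart from the fewer genes or arrays in a fit.

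The replicate number as a block gave 344 higher and 317 lower genes and kept all 119 calls. Deviations from the group means correlated across genes at -0.12, 0.63 and 0.26 between full-length and empty-vector arrays of equal number, and not every array correlated best with its own number (full-length array 1 with empty-vector array 2, 0.24), so the numbers were not taken as pairs in the main comparison. Against deleted-receptor arrays, every full-length and empty-vector array correlated best with its own number (0.30 to 0.71), which is a hint from the data that the numbers mark the 3 experiments of the design text. Among uncalled genes named as fixed members or extremes of a list, Cited2, Pdk4 and Ccl2 were called with the block. So were Pnpla2, Ptgs2, Ccn2, Ccl9, Adamts5, Col4a1, Acsl4, Pex11a and Efnb1. Uncalled genes picked after their values were seen, such as Acadvl, Hadha and Spry2, were not followed singly across the fits. With the block, 13 mitochondrial oxidation genes were higher and 0 lower, beside 344 higher and 317 lower of all 18193 genes. ERK genes had 13 lower and 2 higher, preadipocyte genes 9 lower and 3 higher, and matrix genes 3 lower and 5 higher. Of all single-gene differences and list medians recomputed, 2408 were the same, 509 lost a call, 30 gained one and 58 moved. A gene was the same if its sign and call status were kept, and moved if its sign changed without a call. A list median was the same if it stayed within its standard deviation over the full-length arrays of the main value, and moved otherwise.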
